A study of Mus musculus with 9 samples.

Results

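The expression of 9 goblet cell genes was followed across all 9 RNA-sequencing libraries of the study. The genes were taken by symbol from the 50600 genes of the deposited tables. They are Muc2, Tff3, Agr2, Spdef, Fcgbp, Clca1, Zg16, Atoh1 and Spink4, and all 9 were found and were above the limit for testing. Mouse intestinal epithelium was cultured in Matrigel under 3 conditions, with 3 libraries from 3 different mice in each. Both organoid groups came from the small intestine of WT mice 2 to 5 months old, of a strain given as C57BL/6. The paper's methods, however, describe the mice in general as of mixed background. They were kept for 24 hr in a half-and-half mix of conditioned medium and double-strength organoid medium, which holds EGF, Noggin and R-spondin1. Conditioned medium from tumoroids is called T-cM and that from WT organoids WT-cM. Tumoroids grew without conditioned medium for 24 hr. They were derived from intestinal tumours of Apc1638N/+ mice older than 6 months, of a strain given as MIX, which also carried the R26 mTmG membrane reporter. Per the methods the tumoroids received EGF and Noggin but no R-spondin1, whereas the deposited growth note lists R-spondin1 for all cultures. Genotype, strain, age, reporter and medium cannot be told apart in any comparison between tumoroids and organoids. T-cM was collected over 1 to 2 weeks in the medium without R-spondin1, and WT-cM over 1 week in the medium that contains it, so that the 2 conditioned media also differ in their base.

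The titles and the treatment fields of the 6 organoid libraries name opposite media. A library titled as grown in medium from tumoroids has WT-cM as its treatment, and the reverse, although both labels make the same groups of 3. The groups are named here by title, as T-cM-titled or WT-cM-titled organoids. Should the treatment field be right instead, every direction given between them is inverted. The comparisons of tumoroids with all organoids do not depend on this choice.

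Goblet cells are the mucus-secreting cells of the intestinal epithelium. They arise from crypt progenitors in which low Notch signalling allows the transcription factor ATOH1 to act, and SPDEF, an ETS family factor downstream of ATOH1, promotes their maturation. Muc2 encodes the gel-forming mucin that is the backbone of intestinal mucus, and Fcgbp, Clca1 and Zg16 encode proteins secreted with it. FCGBP is a large mucus protein, CLCA1 a metalloprotease that cleaves MUC2 and ZG16 a lectin that binds Gram-positive bacteria. Tff3 encodes a trefoil peptide of mucus, Agr2 a disulfide isomerase of the endoplasmic reticulum needed for MUC2 production, and Spink4 a Kazal-type protein of goblet cells. Some of these genes are not restricted to goblet cells, since Atoh1 serves all secretory lineages and Agr2 and Spdef are also expressed in Paneth cells.

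The summed counts of the libraries ranged from 16541635 to 25170966. A gene was tested if its TPM reached 1 in any library, which 16208 genes did. TPM, which corrects counts for gene length and library total, serves here for levels. CPM, in which counts are scaled to a library size normalised by the TMM method, serves for differences between groups. A count of 3 corresponded to 0.103 to 0.204 CPM, and this limit covers counting error only. The labelled cell type was checked with 7 epithelial markers, which summed to 7829 to 11668 TPM in the libraries, while 5 fibroblast markers summed to at most 0.33 TPM. The immune markers Cd68 and Csf1r reached 58.3 and 15.6 TPM in tumoroids, but the general leucocyte marker Ptprc stayed at or below 0.14 TPM in every library and the T cell marker Cd3e was at 0. Total Apc counts do not check the Apc1638N label, as reads from the mutant and the normal allele are not separated. The log2 fold change of Apc in tumoroids was -0.29 (SE 0.20, adjusted p = 0.27) against WT-cM-titled and -0.55 (SE 0.20, adjusted p = 0.047) against T-cM-titled organoids.

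In organoids, the levels of the 9 genes fell into an abundant set of 5 and a scarcer set of 4, and both transcription factors were in the latter together with Muc2 and Clca1. Tff3 was the most abundant of the 9 genes, with 2628 ± 127 TPM (SD, n = 3) for T-cM-titled organoids and 2500 ± 284 TPM for WT-cM-titled ones. Spink4 came next with 1249 ± 304 and 1581 ± 450 TPM, followed by Zg16 with 757 ± 279 and 911 ± 77.5 TPM, Agr2 with 497 ± 137 and 480 ± 63.0 TPM, and Fcgbp with 303 ± 17.6 and 290 ± 51.1 TPM. The other 4 genes lay far below. Clca1 had 29.6 ± 11.0 and 34.3 ± 5.39 TPM, Muc2 18.3 ± 2.90 and 17.05 ± 4.20 TPM, Spdef 16.5 ± 2.49 and 14.2 ± 3.06 TPM, and Atoh1 11.5 ± 1.12 and 10.9 ± 0.197 TPM. The order of the 9 genes was the same in both organoid groups. Neighbours whose ranges overlapped were Spink4 and Zg16, Zg16 and Agr2, and Clca1 and Muc2 in T-cM-titled organoids, and Muc2 and Spdef in both groups. The low TPM of Muc2 refers to the 7127 bases of exon that the annotation gives it, and the annotation marks this gene as a fragmented locus.

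**Figure D1:**
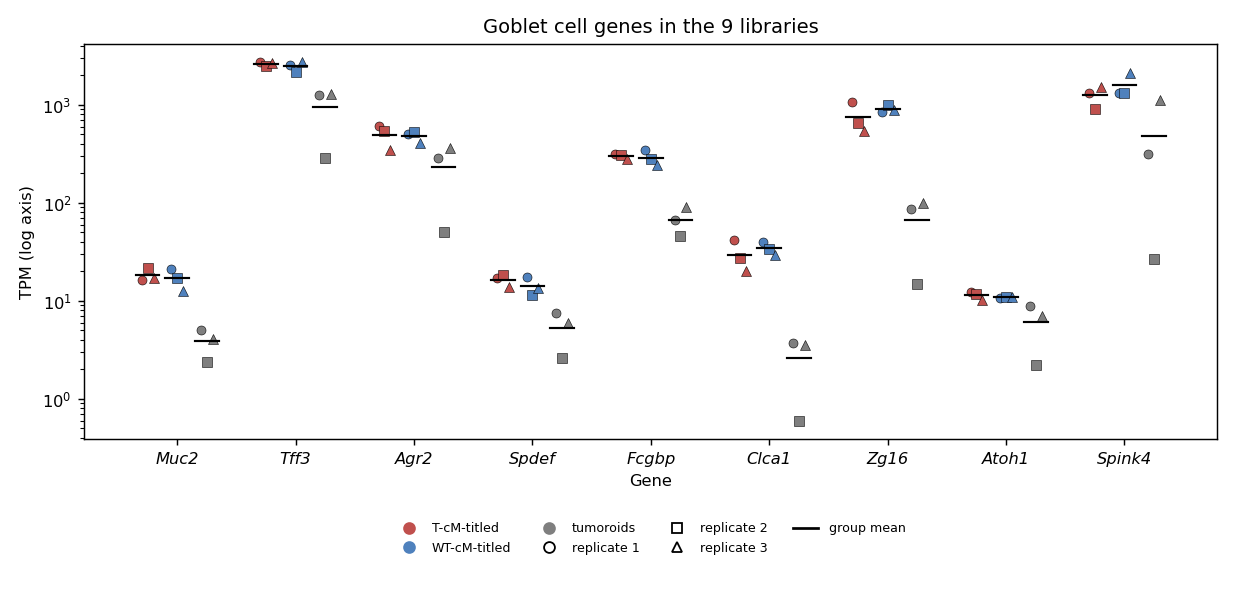
TPM of the 9 goblet cell genes (vertical log axis) in each of the 9 libraries, with the libraries coloured by group, the replicate number as the symbol and a bar at the group mean. Both organoid groups overlap for every gene. All tumoroids lie below the organoids for 7 of the 9 genes, tumoroid library 3 reaches the organoid range for Agr2 and Spink4, and tumoroid library 2 is lowest for all 9.

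The 9 genes lie on 6 chromosomes of GRCm38 and are all annotated as protein coding. No exon of another annotated gene overlaps theirs. Muc2 (chr7:141690340-141754693), Fcgbp (chr7:28071236-28120862), Agr2 (chr12:35992907-36004087), Atoh1 (chr6:64729125-64731245) and Spink4 (chr4:40920052-40931395) are on the plus strand. Tff3 (chr17:31125306-31129646), Spdef (chr17:27714352-27728955), Clca1 (chr3:145003817-145032776) and Zg16 (chr7:127050156-127087328) are on the minus strand.

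Because the genes were lower together in tumoroids, the 250 bases before their start sites were searched for short letter patterns associated with factors of the secretory lineage, on both strands. RefSeq promoters (GRCm38.p6) were at hand for 5 of the 9 genes, namely Muc2, Agr2, Spdef, Fcgbp and Atoh1. Distances are counted from the RefSeq start, which for Agr2 and Spdef lies inside the gene interval given above. The E-box CAGCTG, which reads the same on both strands, was in the Muc2 promoter 112 to 107 bases and in the Fcgbp promoter 208 to 203 bases before the start, and in 13% of all 32851 promoters. TTTATG, part of the site of the intestinal factor CDX2, was in the Agr2 promoter (as CATAAA on the strand of the gene, 47 to 42 bases before the start) and in the Spdef promoter (191 to 186 bases before the start), and in 10.8% of all promoters. The E-box CAGATG (14.4% of all promoters) and the SPDEF-type core CCGGAT (4.94%) were in none of the 5, and the Atoh1 promoter held none of the patterns. These are matches of letters only, and binding was not measured. The 4 promoters with a match are shown on the strand of the gene, 5′ to 3′, with the matched letters in capitals. They are chr7:141690090-141690339 (plus strand) for Muc2, chr7:28070986-28071235 (plus strand) for Fcgbp, chr12:35992675-35992924 (plus strand) for Agr2 and chr17:27728952-27729201 (minus strand) for Spdef.
Muc2: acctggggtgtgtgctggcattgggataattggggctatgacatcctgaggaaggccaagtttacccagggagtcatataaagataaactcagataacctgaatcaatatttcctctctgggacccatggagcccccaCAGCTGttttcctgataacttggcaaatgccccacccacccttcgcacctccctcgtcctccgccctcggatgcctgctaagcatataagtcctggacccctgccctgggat
Fcgbp: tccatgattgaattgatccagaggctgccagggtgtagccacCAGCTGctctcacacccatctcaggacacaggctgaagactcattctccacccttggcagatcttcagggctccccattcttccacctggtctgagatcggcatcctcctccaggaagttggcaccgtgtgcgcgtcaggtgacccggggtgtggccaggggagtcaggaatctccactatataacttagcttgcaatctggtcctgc
Agr2: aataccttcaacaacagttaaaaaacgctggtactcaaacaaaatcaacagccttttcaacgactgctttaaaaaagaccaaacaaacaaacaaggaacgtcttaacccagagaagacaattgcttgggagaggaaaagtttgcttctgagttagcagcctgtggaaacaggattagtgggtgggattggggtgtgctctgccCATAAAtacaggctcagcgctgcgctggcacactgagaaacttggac
Spdef: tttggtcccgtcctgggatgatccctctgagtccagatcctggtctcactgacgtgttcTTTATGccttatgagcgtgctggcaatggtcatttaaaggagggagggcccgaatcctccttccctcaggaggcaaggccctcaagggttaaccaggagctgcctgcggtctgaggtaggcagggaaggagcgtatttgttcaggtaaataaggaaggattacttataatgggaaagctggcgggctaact

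The comparison of tumoroids with organoids asks how the transcripts of Apc-mutant epithelium differ from those of normal epithelium. All 9 genes had lower point estimates in tumoroids. A gene was called when its adjusted p was under 0.05 and its absolute log2 fold change above 1. By this rule, 7 of the 9 genes were lower against WT-cM-titled organoids, where 11.6% of all tested genes were called lower, and 8 of 9 against T-cM-titled organoids, where this share was 11.8%. The median log2 fold change of the 9 genes was -2.25 and -2.11, beside 0.15 and 0.16 over all tested genes. The CPM of every tumoroid library was below that of every organoid library for all 9 genes, a pattern shown by 22.5% and 23.8% of all genes against the 2 organoid groups. In TPM this held for 7 of the 9, as the ranges of Agr2 and Spink4 overlapped. The 2 comparisons share the tumoroid libraries, so they are not independent. Bulk libraries cannot separate fewer goblet cells from less of these transcripts per cell.

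Both transcription factors of the lineage were lower in tumoroids. Atoh1 was at 12.5, 11.7 and 10.3 TPM in T-cM-titled organoids 1 to 3, at 10.7, 11.1 and 10.9 TPM in WT-cM-titled organoids and at 8.88, 2.22 and 7.07 TPM in tumoroids. No tumoroid library reached the lowest organoid. The log2 fold change of Atoh1, the smallest of the 9, was -1.35 (SE 0.44, adjusted p = 0.033) against WT-cM-titled and -1.40 (SE 0.44, adjusted p = 0.028) against T-cM-titled organoids. Both calls were lost when any 1 library of the organoid group compared was left out, with adjusted p from 0.053 to 0.083, and the first was also lost in TPM. In all, the call was lost in 7 of 17 alternatives against WT-cM-titled and in 5 of 17 against T-cM-titled organoids. The smallest log2 fold changes were -0.90 and -0.97. Spdef was at 17.1, 18.6 and 13.8 TPM in T-cM-titled organoids, at 17.5, 11.5 and 13.6 TPM in WT-cM-titled organoids and at 7.46, 2.60 and 5.90 TPM in tumoroids. All 3 tumoroid values lay below the organoid range. Spdef was 3.76-fold lower than in WT-cM-titled organoids (log2 fold change -1.91, SE 0.38, adjusted p = 0.0030) and 4.32-fold lower than in T-cM-titled organoids (log2 fold change -2.11, SE 0.38, adjusted p = 0.0017).

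The mucin and the large mucus protein were lower to a similar extent. Muc2 was at 16.4, 21.7 and 16.99 TPM in T-cM-titled organoids, at 21.1, 17.3 and 12.7 TPM in WT-cM-titled organoids and at 5.08, 2.39 and 4.14 TPM in tumoroids. The highest tumoroid value was well under the lowest organoid value. Muc2 was 6.22-fold lower than in WT-cM-titled organoids (log2 fold change -2.64, SE 0.31, adjusted p = 0.00015) and 6.66-fold lower than in T-cM-titled organoids (log2 fold change -2.74, SE 0.31, adjusted p = 0.00012). Fcgbp was at 314, 311 and 282 TPM in T-cM-titled organoids, at 345, 281 and 244 TPM in WT-cM-titled organoids and at 66.4, 46.1 and 90.8 TPM in tumoroids. Its tumoroid values spread by 1.97-fold, the least among the 9 genes. Fcgbp was 6.13-fold lower than in WT-cM-titled organoids (log2 fold change -2.62, SE 0.26, adjusted p = 6.1e-05) and 6.32-fold lower than in T-cM-titled organoids (log2 fold change -2.66, SE 0.26, adjusted p = 5.8e-05).

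Zg16 and Clca1, the lectin and the protease of mucus, had the largest differences. Zg16 was at 1073, 650 and 547 TPM in T-cM-titled organoids, at 852, 999 and 883 TPM in WT-cM-titled organoids and at 86.2, 14.9 and 101 TPM in tumoroids. It was 19.3-fold lower than in WT-cM-titled organoids (log2 fold change -4.27, SE 0.63, adjusted p = 0.00056) and 15.6-fold lower than in T-cM-titled organoids (log2 fold change -3.96, SE 0.62, adjusted p = 0.00076). Clca1 was at 41.6, 27.1 and 20.1 TPM in T-cM-titled organoids, at 40.0, 33.7 and 29.3 TPM in WT-cM-titled organoids and at 3.73, 0.59 and 3.52 TPM in tumoroids. The 3 tumoroid libraries held 95, 16 and 108 counts of Clca1. It was 18.5-fold lower than in WT-cM-titled organoids (log2 fold change -4.21, SE 0.58, adjusted p = 0.00037) and 15.7-fold lower than in T-cM-titled organoids (log2 fold change -3.97, SE 0.57, adjusted p = 0.00049).

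Among the abundant secretory products, Tff3 was lower in tumoroids, whereas the calls of Agr2 and Spink4 depended on the processing. Tff3 was at 2721, 2484 and 2680 TPM in T-cM-titled organoids, at 2567, 2189 and 2744 TPM in WT-cM-titled organoids and at 1257, 285 and 1293 TPM in tumoroids. It remained the most abundant of the 9 genes there on average. Tff3 was 3.76-fold lower than in WT-cM-titled organoids (log2 fold change -1.91, SE 0.48, adjusted p = 0.0099) and 3.88-fold lower than in T-cM-titled organoids (log2 fold change -1.96, SE 0.48, adjusted p = 0.0084). Agr2 was at 610, 536 and 345 TPM in T-cM-titled organoids, at 506, 525 and 408 TPM in WT-cM-titled organoids and at 287, 50.7 and 362 TPM in tumoroids. Tumoroid library 3 lay above the lowest organoid in TPM. The log2 fold change of Agr2 was -1.54 (SE 0.56, adjusted p = 0.051) against WT-cM-titled and -1.57 (SE 0.56, adjusted p = 0.046) against T-cM-titled organoids. Agr2 was called in 8 of 17 alternatives against T-cM-titled organoids, with adjusted p from 0.0041 to 0.11, and in 7 of 17 against WT-cM-titled organoids, with adjusted p from 0.0049 to 0.12. The call against T-cM-titled organoids was lost, among others, without any 1 T-cM-titled library or without tumoroid library 1 (adjusted p from 0.059 to 0.11). Without tumoroid library 2, Agr2 was called in both comparisons (log2 fold changes -1.07 and -1.10, adjusted p = 0.0049 and 0.0041).

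Spink4 was at 1315, 918 and 1515 TPM in T-cM-titled organoids, at 1321, 1322 and 2100 TPM in WT-cM-titled organoids and at 314, 27.1 and 1120 TPM in tumoroids. Tumoroid library 3 reached the organoid range in TPM and library 2 was far below it, a spread of 41.4-fold. The log2 fold change was -2.25 (95% interval -4.30 to -0.19, adjusted p = 0.076) against WT-cM-titled and -1.87 (95% interval -3.90 to 0.16, adjusted p = 0.12) against T-cM-titled organoids. Spink4 was called in 7 of 17 alternatives against WT-cM-titled organoids, with adjusted p from 0.0082 to 0.18 over all of them, and in 3 of 17 against T-cM-titled organoids, with adjusted p from 0.012 to 0.26. Without tumoroid library 3 it was called in both comparisons (log2 fold changes -3.70 and -3.33, adjusted p = 0.0082 and 0.012), and without tumoroid library 2 against WT-cM-titled organoids alone (log2 fold changes -1.69 and -1.32, adjusted p = 0.024 and 0.055). With limma voom (adjusted p = 0.027 and 0.039) or the replicate block (0.025 and 0.038) it was called in both.

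**Figure D2:**
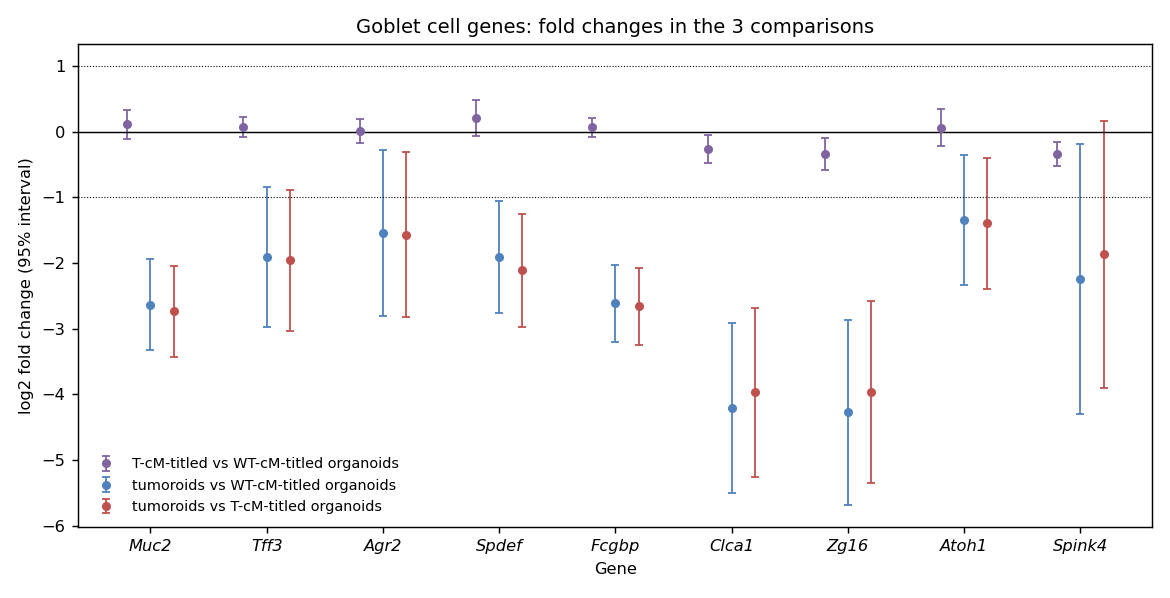
Log2 fold changes of the 9 goblet cell genes (points) with 95% intervals (bars) in the 3 comparisons, with dotted lines at -1 and 1. The values between organoid groups lie between -0.35 and 0.21, and those of tumoroids lie between -4.27 and -1.35, widest for Spink4.

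The 3 tumoroid libraries were not alike. Library 2 was the lowest of the 3 for all 9 goblet cell genes, and for 32.6% of all tested genes. Relative to the mean CPM of the 6 organoid libraries, library 2 held between 1.18% (Zg16) and 13.1% (Atoh1) of the organoid level, while libraries 1 and 3 held between 7.58% (Clca1, library 3) and 59.5% (Atoh1, library 1). Spink4, Zg16 and Clca1 were each under 1.25% of the organoid mean in library 2, whereas Muc2, Spdef, Fcgbp and Atoh1 stayed above 8.9%. Without library 2, 8 genes were called against WT-cM-titled organoids, where Agr2 and Spink4 were gained and Atoh1 was lost, and the same 8 as with it were called against T-cM-titled organoids. The median log2 fold change was -1.69 and -1.78 without it. All 9 log2 fold changes were smaller without it in both comparisons, for example that of Zg16 moved from -4.27 to -3.80 and that of Tff3 from -1.91 to -1.48 against WT-cM-titled organoids. That of Atoh1 moved to -0.95 in this comparison, short of the fold threshold.

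Markers of other secretory cells differed as well, but not all in the same direction. The 5 Paneth cell markers Lyz1, Mmp7, Defa24, Defa17 and Itln1 summed to 15485 to 19887 TPM in organoids and to 8199, 882 and 5595 TPM in tumoroids 1 to 3. Of these 5 genes, Lyz1, Defa24 and Defa17 were called lower and Mmp7 higher in both comparisons, and Lyz1 was at 427, 9.01 and 811 TPM in the 3 tumoroid libraries. The 5 enteroendocrine markers summed to 260 to 498 TPM in organoids and to 821, 110 and 204 TPM in tumoroids, so that library 1 lay above every organoid and the other two below. Most of this sum was Chgb, which was not called. The hormone gene Sct was called lower in both comparisons (log2 fold changes -2.61, SE 0.40, and -2.87, SE 0.40), and Chga was called lower against WT-cM-titled organoids alone (-1.31, SE 0.39, adjusted p = 0.022). The 4 tuft cell markers were higher in sum, with 24.0, 14.9 and 23.0 TPM in tumoroids and 8.77 to 10.7 TPM in organoids, but this sum rested on Pou2f3, the tuft cell transcription factor, which was called higher (log2 fold change 2.09, SE 0.29, against WT-cM-titled organoids). Dclk1 and Trpm5, the other two tuft cell markers tested, were not called, with log2 fold changes of -0.71 (SE 0.38) and -0.54 (SE 0.35) against WT-cM-titled organoids. Library 2 was the lowest tumoroid in the goblet, Paneth, enteroendocrine and tuft cell lists, while its 7 epithelial markers summed to 10130 TPM, between libraries 1 and 3. The 5 enterocyte markers, which belong to the absorptive lineage, summed to 21082 to 50384 TPM in organoids and to 31.4 to 314 TPM in tumoroids and were all called lower, and library 2 was the highest tumoroid in this list. Of 4 stem cell markers, Lgr5, Ascl2 and Smoc2 were called higher in tumoroids and Olfm4 was not called. The part of these other cell types in the goblet cell values was not tested.

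**Figure D3:**
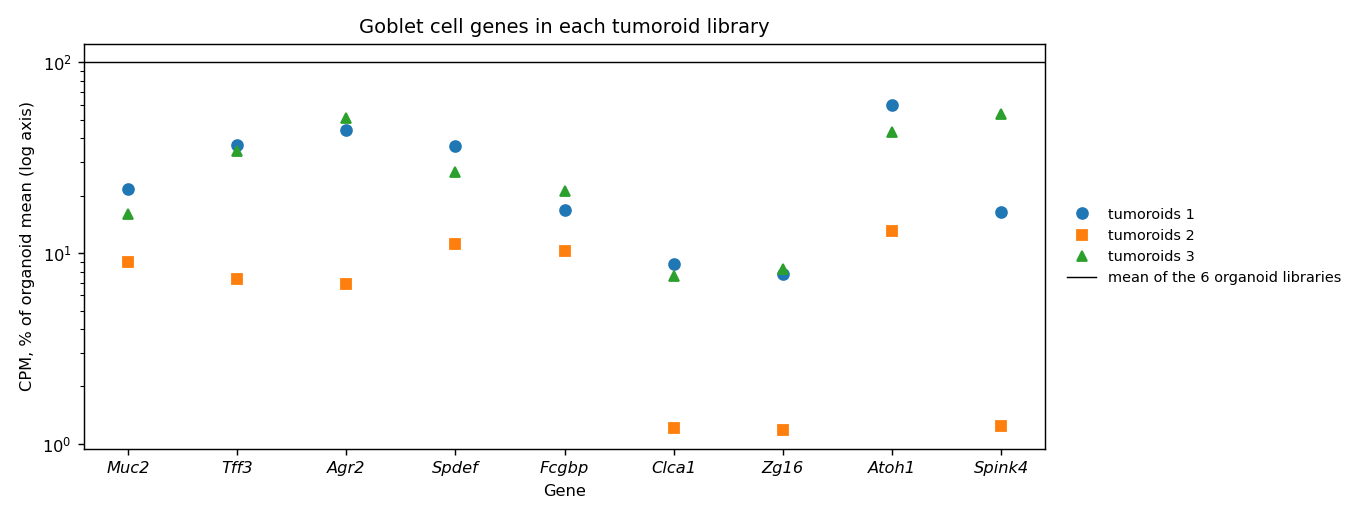
Level of the 9 goblet cell genes in each tumoroid library as a percentage of the mean CPM of the 6 organoid libraries (vertical log axis), with the organoid mean as a line at 100%. Library 2 is the lowest for every gene, from 1.18% to 13.1%, and libraries 1 and 3 lie between 7.58% and 59.5%.

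The make-up of the goblet cell transcripts differed as well as their amount. The 9 genes together summed to 4977 to 6445 TPM in organoids and to 2035, 432 and 2988 TPM in tumoroids. Of this sum, Zg16 made up 13.6 ± 3.76% for T-cM-titled and 15.7 ± 2.5% for WT-cM-titled organoids but 3.68 ± 0.479% in tumoroids, with every tumoroid between 3.37% and 4.24%. Clca1 made up 0.531 ± 0.155% and 0.595 ± 0.128% in the organoid groups and 0.146 ± 0.0337% in tumoroids. Agr2 made up 9.03 ± 2.35% and 8.33 ± 1.78% in the organoid groups and 12.7 ± 1.25% in tumoroids, all 3 of which were above the organoid range. Tff3 made up 61.8%, 66.0% and 43.3% in tumoroids 1 to 3, against 40.6% to 49.9% in organoids, so that its share overlapped through library 3. Spink4 ranged most, from 6.27% in tumoroid library 2 to 37.5% in library 3. These shares are descriptions and carry no test.

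Between the organoid groups the question was whether medium from tumoroids changes the epithelium within 24 hr. None of the 9 goblet cell genes was called by edgeR's quasi-likelihood test, whereas 1.10% of all tested genes were called in either direction. The median log2 fold change of the 9 genes was 0.06, beside 0.00 over all genes. At an unadjusted p under 0.05, 3 of the 9 passed, beside 22.0% of all genes. These were Spink4, Zg16 and Clca1, all lower in T-cM-titled organoids. Both limma voom and DESeq2 also called 0 of the 9. Only Spink4 passed the adjusted p alone, as did 10.1% of all tested genes. For every one of the 9 genes the CPM values of both groups overlapped, while 5.28% of all genes were lower and 5.12% higher without overlap. In the fit with replicate pairs, the 95% intervals lay between -0.58 and 0.48 for all 9 genes. Their error estimate is drawn partly from all tested genes and can be narrower than the spread of the pairs. For Zg16 the interval was -0.58 to -0.10, while its pairs were at 0.36, -0.66 and -0.75. A 2-fold difference is therefore not excluded for each gene.

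The largest differences were those of Spink4, Zg16 and Clca1, and they rested on pairs 2 and 3. Same-numbered libraries of the 2 organoid groups were compared as pairs. Spink4 had a log2 fold change of -0.35 (SE 0.088, adjusted p = 0.010), with 0.02, -0.56 and -0.53 in pairs 1 to 3. Zg16 had -0.34 (SE 0.12, adjusted p = 0.068), with 0.36, -0.66 and -0.75. Clca1 had -0.27 (SE 0.10, adjusted p = 0.10), with 0.08, -0.35 and -0.61. These genes were thus level or higher in T-cM-titled organoids in pair 1 and lower in pairs 2 and 3. None of the 9 genes moved in the same direction in all 3 pairs, as 41.2% of all tested genes did.

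Muc2 and Fcgbp ran the other way. The log2 differences of Muc2 were -0.34, 0.29 and 0.35 in pairs 1 to 3 (log2 fold change 0.11, SE 0.11, adjusted p = 0.62), and those of Fcgbp were -0.11, 0.11 and 0.15 (log2 fold change 0.06, SE 0.072, adjusted p = 0.70). Spdef was higher in T-cM-titled organoids in pair 2 alone, by 0.66, and its log2 fold change was 0.21 (SE 0.14, adjusted p = 0.41). Tff3 (0.07, SE 0.074), Atoh1 (0.06, SE 0.14) and Agr2 (0.01, SE 0.086) had log2 fold changes near 0, with adjusted p of 0.69, 0.88 and 0.99. Without pair 1, the log2 fold change of Zg16 was -0.69, of Spink4 -0.54, of Clca1 -0.47 and of Muc2 0.33, and the adjusted p of these 4 genes was under 0.05, as was that of 17.7% of all tested genes in this fit. Without pair 2 or pair 3, none of the 9 genes passed, and the adjusted p of Spink4 was 0.61 and 0.20. The fit without pair 2 passed 1 of all 16208 genes and that without pair 3 passed 3.29% of them, so calls between the organoid groups were lost there across all genes. Without the pairing it was 0.93, and with the pairing in limma voom 0.10. The 5 Paneth cell markers were all lower in point estimate in T-cM-titled organoids, with Mmp7, Defa17 and Itln1 passing the adjusted p at log2 fold changes of -0.35, -0.37 and -0.26. Markers of other cell types differed too. The enteroendocrine markers Chga (-0.48) and Chgb (-0.30), the stem cell markers Ascl2 (-0.66) and Smoc2 (-0.61) and the enterocyte markers Fabp1 (-0.61) and Lct (-0.48) passed the adjusted p with lower values in T-cM-titled organoids, and the enterocyte marker Alpi (0.75) with a higher one. The part of these cell types in the values of Spink4 was not tested.

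**Figure D4:**
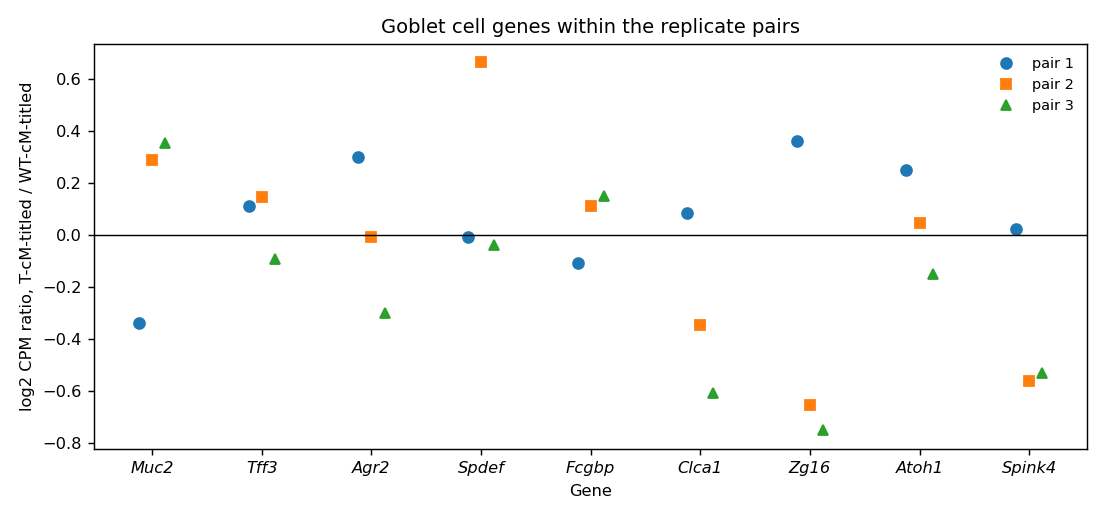
Log2 CPM ratio of T-cM-titled to WT-cM-titled organoids for the 9 goblet cell genes within each of the 3 replicate pairs (symbols). No gene lies on one side of 0 in all 3 pairs, and Zg16, Clca1 and Spink4 lie below 0 in pairs 2 and 3 only.

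Among the 6 organoid libraries the 9 genes did not form 1 block. The log2 CPM of Clca1 and Zg16 varied together (Pearson's r = 0.86 over 6 libraries), as did that of Fcgbp and Muc2 (r = 0.83), while Spink4 and Muc2 varied in opposite directions (r = -0.86). These pairs were picked as the extremes of all pairs among the 9 genes. The 5 genes most like the mean of the 9 standardised profiles were Tinf2, Tnfrsf14, Gm30414, Ppp1r11 and 9130409J20Rik, with r from 0.94 to 0.97 over 6 libraries and 10519 genes compared. The correlation of the members themselves with this mean ran from -0.30 for Spink4 to 0.83 for Agr2, so that the mean stands for few of them. Over all 9 libraries, where the difference between tumoroids and organoids dominates, each member had an r of at least 0.93 with the mean. Each member is itself part of that mean. The most similar profiles there were those of Gm1123, Acat2, Ano7, Nsdhl and Mcoln2 (r from 0.99 to 1.00 over 9 libraries). Libraries share depth and culture, and these values are descriptions.

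Other genes known from goblet cells did not follow the 9 uniformly in tumoroids. Of 18 such genes, 7 were called lower and 5 higher in each comparison, where 18.2% (WT-cM-titled) and 19.4% (T-cM-titled) of all tested genes were called higher and 11.6% and 11.8% lower, and the median log2 fold change of the list was -1.06 against WT-cM-titled and -1.02 against T-cM-titled organoids. Scin, an actin-severing protein, had the largest decrease, from 155 to 355 TPM in organoids to 1.29, 2.04 and 0.66 TPM in tumoroids (log2 fold change -8.33, SE 0.48, against WT-cM-titled organoids). Tpsg1, a transmembrane tryptase (-2.27, SE 0.38), and Sytl2, a synaptotagmin-like protein of secretory granules (-1.83, SE 0.27), were also lower. In contrast Ttc39a (2.01, SE 0.28), Lrrc26, a regulatory subunit of BK potassium channels (1.41, SE 0.24), and Smim6 (1.39, SE 0.35) were higher than in WT-cM-titled organoids, and Bace2, a beta-secretase (1.98, SE 0.52), was higher than in T-cM-titled organoids, though not with limma voom (adjusted p = 0.080). Retnlb, the goblet cell cytokine RELMbeta, was chosen after its values were seen. It was at 180, 3.99 and 1.06 TPM in tumoroids and at no more than 1 count in any organoid library, so its level rested on tumoroid library 1. Its call against WT-cM-titled organoids was lost without any 1 library of that group, with adjusted p up to 0.10. Between the organoid groups 2 of the 18 genes passed the adjusted p, beside 10.1% of all tested genes, and both were lower in T-cM-titled organoids. These were Scin (log2 fold change -0.77, SE 0.11, adjusted p = 1.3e-05) and Lrrc26 (-0.49, SE 0.15, adjusted p = 0.031), and without replicate 2 neither passed (adjusted p = 0.40 and 0.57). Scin passed in 9 of 14 alternatives and Lrrc26 in 5.

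Of 8 other transcription factors of secretory and goblet cells, 4 were called higher in tumoroids in both comparisons, where 18.2% and 19.4% of all tested genes were called higher, and 0 were called lower, beside 11.6% and 11.8% of all genes. The median log2 fold change of these 8 was 0.84 in both comparisons. Foxa1 was at 46.3, 45.1 and 75.4 TPM in tumoroids and at 11.0 to 16.5 TPM in organoids, with a log2 fold change of 1.59 (SE 0.22, adjusted p = 0.00039) against WT-cM-titled organoids. The forkhead factor Foxa2 (2.23, SE 0.58) and the zinc finger factor Klf4 (1.12, SE 0.29), which acts in goblet cell maturation, were higher too. So was Foxa3. Foxa2 had an adjusted p of 0.012 against WT-cM-titled and 0.011 against T-cM-titled organoids. This rose to 0.053 without WT-cM-titled replicate 2 and to 0.051 and 0.056 with limma voom. Klf4 reached 0.051 against T-cM-titled organoids without their replicate 1. With 1 library left out, the log2 fold change of Klf4 fell to as low as 0.88 against WT-cM-titled and 0.84 against T-cM-titled organoids, short of the fold threshold. Xbp1, a factor of the secretory stress response, had a log2 fold change of -0.13 (SE 0.28, adjusted p = 0.73) and Creb3l1 one of -0.64 (SE 0.41, adjusted p = 0.25) against WT-cM-titled organoids. Atoh1 and Spdef thus differed in direction from 4 of these 8 factors in the same libraries.

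Among genes of Notch signalling and lineage choice, which set the secretory fate, 3 of 7 were called higher and 1 lower in tumoroids in both comparisons, beside 18.2% and 19.4% of all tested genes called higher and 11.6% and 11.8% called lower. Sox4, Notch2 and Neurog3 were those called higher, and Notch1 and Hes1 passed the adjusted p with smaller changes. Neurog3 was at 3.59 (SE 1.13, adjusted p = 0.028) against WT-cM-titled organoids, which held 2 to 32 counts of it. Alternatives were not run for Neurog3. Sox4, a transcription factor of secretory progenitors, was at 97.4, 91.5 and 333 TPM in tumoroids and at 7.07 to 18.6 TPM in organoids (log2 fold change 3.37, SE 0.54, against WT-cM-titled organoids). Notch2, a Notch receptor, had a log2 fold change of 1.95 (SE 0.39) and Notch1 one of 0.90 (SE 0.21). Dll1, a Notch ligand of secretory progenitors, was lower, by -1.13 (SE 0.25) against WT-cM-titled and -1.91 (SE 0.26) against T-cM-titled organoids. The former call was lost in TPM with a pseudocount of 1 (-0.57, adjusted p = 0.063). Dll1 also differed between the organoid groups. It was at 26.3, 52.0 and 39.6 TPM in T-cM-titled organoids against 22.7, 25.2 and 19.8 TPM in the WT-cM-titled group. Its log2 fold change of 0.75 (SE 0.11, adjusted p = 3.1e-05) did not reach the fold threshold and was lost without replicate 2 (adjusted p = 0.37).

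Single enzymes that build mucin glycans differed strongly, in both directions. Of 15 genes in this list 12 were tested, and 3 were called higher in both comparisons, with 2 lower against WT-cM-titled and 3 lower against T-cM-titled organoids. Of all tested genes, 18.2% and 19.4% were called higher and 11.6% and 11.8% lower. Fut2, the fucosyltransferase of secreted glycans, was at 21.1, 15.2 and 57.8 TPM in tumoroids and at 0.27 to 0.66 TPM in organoids (log2 fold change 5.51, SE 0.58, against WT-cM-titled organoids). The core 2 enzyme gene Gcnt1 was also higher (4.45, SE 0.41), as was Gcnt3 (1.42, SE 0.45). Gcnt3 did not pass in 5 of 17 alternatives against WT-cM-titled organoids and in 7 of 17 against T-cM-titled organoids. Without tumoroid library 3 its log2 fold changes were 0.67 and 0.52 (adjusted p = 0.095 and 0.18), and its call was also lost without any 1 library of the organoid group compared. The sialyltransferase gene St3gal4 was at 50.9, 52.9 and 91.6 TPM in tumoroids and at 1046 to 1329 TPM in organoids (-4.81, SE 0.28), and Gcnt4 was lower as well (-4.71, SE 0.65). C1galt1c1, the chaperone of the core 1 enzyme, passed the adjusted p at -0.86 (SE 0.14), but not in TPM with a pseudocount of 1, where it was at -0.31 (adjusted p = 0.098). Between the organoid groups 1 of the 12 passed the adjusted p, beside 10.1% of all tested genes. This was Gcnt4, at 0.33 (SE 0.085, adjusted p = 0.011), which passed in 8 of 14 alternatives, with adjusted p up to 0.92.

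Genes of protein folding and secretion in the endoplasmic reticulum differed by small amounts. Of 18 such genes, 1 was called higher in both comparisons, beside 18.2% and 19.4% of all tested genes. By the same rule 1 was called lower against WT-cM-titled and 3 against T-cM-titled organoids, beside 11.6% and 11.8% of all genes. By the adjusted p alone 6 of the 18 were lower in each comparison, beside 18.5% and 19.2% of all genes, and the median log2 fold changes were -0.50 and -0.47. The list summed to 2442 to 3724 TPM in organoids and to 2631, 2737 and 3400.5 TPM in tumoroids, so the groups overlapped. Fkbp11, a secretory prolyl isomerase, was higher (1.29, SE 0.39, against WT-cM-titled organoids), and its adjusted p rose to 0.092 in the least favourable alternative. The retrieval receptor gene Kdelr2 was called lower (-1.14, SE 0.14, against WT-cM-titled organoids). It passed the adjusted p in all 17 alternatives, but its log2 fold change was -0.61 in the least favourable one, short of the fold threshold. Tram1 of the translocon (-0.97, SE 0.17) and Calr, the chaperone calreticulin (-0.91, SE 0.18), were among those that passed the adjusted p alone in this comparison. In TPM with a pseudocount of 1, Calr was at -0.37 and did not pass (adjusted p = 0.14).

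The other mucins did not all follow Muc2. Of 11 mucins other than Muc2, 7 were tested, and 3 were called higher and 2 lower in both comparisons, where 18.2% and 19.4% of all tested genes were called higher and 11.6% and 11.8% lower. The membrane mucin Muc1 and the gastric gel-forming mucins Muc5ac and Muc6 had at most 2 counts in any organoid library. In tumoroids, Muc5ac was at 5.35, 0.67 and 3.24 TPM, Muc6 at 2.68, 6.62 and 0.11 TPM and Muc1 at 3.48, 9.99 and 30.2 TPM. Taking 3 counts in the least sensitive library as the floor, Muc5ac was at least 47.9-fold, Muc1 at least 46.8-fold and Muc6 at least 40.2-fold higher than in T-cM-titled organoids, where all 3 were at 0. These bounds use the mean of the tumoroids and rest largely on 1 library each. Without the highest tumoroid library they were 28.6-fold for Muc5ac (without library 1), 21.6-fold for Muc1 (without library 3) and 19.5-fold for Muc6 (without library 2), and Muc6 had only 8 counts in tumoroid library 3. These 3 mucins varied between tumoroids without following library 2, which was the highest for Muc6 and the lowest for Muc5ac. Of the intestinal membrane mucins, Muc13 was lower (-1.37, SE 0.28, against WT-cM-titled organoids) and so was Muc3 (-2.58, SE 0.42). Between the organoid groups, Muc4 was called lower in T-cM-titled organoids at a level near 1 TPM, with 0.39, 0.35 and 0.41 TPM against 0.98, 0.82 and 1.10 TPM (log2 fold change -1.33, SE 0.21, adjusted p = 7.4e-05). This call was lost without replicate 2 (adjusted p = 0.21).

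Relatives of the 9 genes did not repeat the pattern of the goblet cell member in each case. Tff1, a trefoil peptide of the stomach, was called lower in tumoroids, as was Tff3. It had 1, 0 and 4 counts in tumoroids, near the limit of 3 counts, against 9 to 59 counts in T-cM-titled and 5 to 26 counts in WT-cM-titled organoids, so no fold is given. It was also called higher in the T-cM-titled group than in the other organoids, with 2.56, 20.6 and 7.31 TPM against 1.51, 7.93 and 4.02 TPM (log2 fold change 1.07, SE 0.33, adjusted p = 0.035). This call was lost without replicate 2 (adjusted p = 0.63) and without replicate 3 (adjusted p = 0.15). Of the 9 relatives tested, 4 passed the adjusted p between the organoid groups, Tff1 included, beside 10.1% of all tested genes. The other 3 had changes under the fold threshold. In the T-cM-titled group Clca3b was lower, as in each of the 3 pairs (-0.86, SE 0.11, adjusted p = 2.7e-06), Spink1 was lower (-0.49, SE 0.097, adjusted p = 0.00091) and Clca4a was higher (0.74, SE 0.17, adjusted p = 0.0035). Without replicate 2 none of these 3 passed (adjusted p from 0.20 to 0.48), and they passed in 10 (Clca3b), 9 (Spink1) and 8 (Clca4a) of 14 alternatives. Between tumoroids and organoids 1 of the 9 relatives was called higher and 4 lower against WT-cM-titled organoids, beside 18.2% and 11.6% of all genes, and 2 higher and 4 lower against T-cM-titled organoids, beside 19.4% and 11.8%. Of the Clca family, Clca4b was at 256 to 491 TPM in organoids and at 2.33, 2.31 and 4.64 TPM in tumoroids (-7.52, SE 0.43, against WT-cM-titled organoids) and Clca4a was lower too (-5.32, SE 0.40), whereas Clca3a1 was higher than in T-cM-titled organoids (1.09, SE 0.32). The call of Clca3a1 was lost without tumoroid library 1 (0.88, adjusted p = 0.064) and without T-cM-titled replicate 2 (0.86, adjusted p = 0.079). Clca3b was at 205, 39.0 and 97.3 TPM in tumoroids and at 7.44 to 80.0 TPM in organoids and did not pass the test between tumoroids and organoids. Spink1, a trypsin inhibitor, was lower in tumoroids (-3.80, SE 0.90) but highest in tumoroid library 2, with 17.9, 198 and 15.4 TPM in the 3 libraries, the reverse of Spink4. Agr3, the closest relative of Agr2, was higher in tumoroids (1.77, SE 0.56, adjusted p = 0.029), a call that was lost in 7 of 17 alternatives, among them those without any 1 WT-cM-titled library or without tumoroid library 1 or 2 (adjusted p from 0.062 to 0.10).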

How the data were processed

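RNA was measured by stranded, poly(A)-selected sequencing in 9 mouse libraries, grouped by title. The authors aligned reads to mm10 with STAR and deposited raw counts per gene of the Gencode mouse annotation, not normalised, and the same data as TPM; counting tool and strand setting are not given in the sources used here. The gene length behind the deposited TPM, recovered from both tables, equals the annotated exon length for 8 of the 9 genes (Spdef, 0.95 of it). The 9 genes and all lists were chosen with earlier results of these data known.

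Counts were fitted with edgeR 4.0.16 (quasi-likelihood, TMM factors, form used before edgeR 4) in R 4.3.3, for genes whose TPM reached 1 in any library, with Benjamini-Hochberg adjustment over all 16208 genes. Organoid groups were compared over 6 libraries with replicate number as a block, because the study's methods add a sample effect there. Same-numbered libraries deviated together from their group means (r of 0.55, 0.34 and 0.55 over genes). The values for different numbers (-0.45 to -0.05) partly follow from these, since deviations cancel within a group. Tumoroids were compared over 9 libraries without a block. Alternatives used limma 3.58.1 (voom, or trend on log2 of the deposited TPM) and DESeq2 1.42.0, other scalings and filters, and each library left out. The edgeR fit was tested on simulated counts with the same dispersion for every gene and no replicate effect, a simpler setting than these libraries. Named genes were the 9 genes, up to 3 genes per other list, comparison and direction with the smallest p at an adjusted p under 0.05, and the 5 most similar profiles (mean of at least 5 CPM). Figures used matplotlib 3.10.9.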

Additional observations from a re-analysis of the deposited data

How the results depend on the processing

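The lowest count of the 9 genes was 16 (Clca1, tumoroid library 2), and 3 libraries per group limit the precision. Between tumoroids and organoids no gene changed direction in any of 17 alternatives per comparison. Between 6 and 9 of the 9 genes were called, and Muc2, Tff3, Spdef, Fcgbp, Clca1 and Zg16 were called in all of them in both comparisons, while Agr2, Spink4 and Atoh1 changed sides. With the replicate block added 8 genes were called against WT-cM-titled and 8 against T-cM-titled organoids, with Spink4 called in both (adjusted p = 0.025 and 0.038) and Agr2 in neither (0.054 and 0.051). Library totals without factors, chosen after seeing the data, gave 6 and 6. That scaling moved the median log2 fold change of all genes against WT-cM-titled organoids from 0.15 to 0.54, and raised the share of called genes that were higher from 61.1% to 76.1% (78.5% in TPM with a pseudocount of 1).

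Between the organoid groups 0 of the 9 genes were called in all alternatives with the fold threshold, also with no replicate block, where 0 genes of all were called instead of 179, and with each replicate left out (0 to 0 of the 9). Over all genes, 385 were called without replicate 1, 1 without replicate 2, 94 without replicate 3 and 93 by DESeq2. Without the fold threshold 1 gene (Spink4) passed. Log2 fold changes changed sign for Agr2 with upper-quartile factors (-0.012) and with library totals (-0.016), and when replicates were left out in turn, over which they ranged from -0.14 to 0.15 for Agr2, from -0.046 to 0.15 for Atoh1, from -0.019 to 0.32 for Spdef and from -0.024 to 0.33 for Muc2. The cause was not tested.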
